A study of Mus musculus with 12 samples.

Results

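Platelet-activating factor hydrolases were followed across skeletal muscle and hypothalamus of male mice. The set comprised 6 genes, Pla2g7, Pafah2, Pafah1b1, Pafah1b2, Pafah1b3 and the receptor gene Ptafr, taken by symbol, synonym or gene identifier from the platform's probe annotation. Of these, 4 were measured (Pla2g7, Pafah2, Pafah1b1 and Pafah1b3), each by 1 of the 33012 probes. No probe was annotated to Pafah1b2 or Ptafr, and both were not analysed here. Pla2g7 was chosen by its measured strain difference in muscle (limma adjusted p = 0.0124), so its muscle values are given as a description and support nothing further. The other genes were added for their biochemical role.

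Platelet-activating factor is an ether phospholipid with an acetyl group that acts on leukocytes, platelets and vessels through a G protein-coupled receptor, the product of Ptafr, and it is inactivated by removal of the acetyl group. Pla2g7 encodes the secreted hydrolase, which is made largely by macrophages, circulates on lipoproteins and also cleaves oxidised phospholipids, and Pafah2 encodes its intracellular relative. The brain form is a complex in which Pafah1b2 and Pafah1b3 encode the catalytic subunits and Pafah1b1 encodes LIS1, which also regulates the motor dynein and is mutated in human lissencephaly.

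The 4 groups were muscle of B6.CAST-17 congenics, muscle of wild type B6 mice, hypothalamus of B6.CAST-17 congenics and hypothalamus of wild type B6 mice, with 3 arrays each. The congenic mice were homozygous for a chromosome 17 segment of the wild-derived strain CAST on the B6 background, and no source used here gives the ends of that segment or the ages of the mice. The series text names 3 male mice per strain and both tissues. Groups were taken from the sample titles, since the descriptions give the congenic strain also for wild type samples. Only the hypothalamus titles call the congenics short, and whether 1 animal gave both tissues is not stated.

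Values were one-colour chemiluminescent signals, deposited on a scale taken here as log2 from its range, so that a difference of 1 is read as 2-fold. The 6 arrays of a tissue shared a single distribution, and levels set across the tissues are therefore descriptions. The mean of 8 skeletal muscle markers lay between 20.13 and 20.28 in muscle and between 9.08 and 9.66 in hypothalamus. The mean of 9 neuronal markers was 14.28 to 15.02 on the congenic hypothalamus arrays. It was 14.62 and 14.57 on wild type arrays 2 and 3, and 12.23 on wild type hypothalamus array 1. On that array Tubb3 (10.36), Eno2 (9.08), Slc17a6 (7.61), Stmn2 (17.80) and Snap25 (7.33) lay below wild type arrays 2 and 3. Gad1 (17.46), Syt1 (13.57), Nefl (16.40) and Nefm (10.49) lay above them, so the markers did not fall together. The Spearman correlations of that array with the remaining hypothalamus arrays were 0.420 to 0.461, against 0.775 to 0.853 among the remaining 5. Strain differences in hypothalamus are given with and without it, and levels across tissues and correlations without it.

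Pla2g7 is the only measured member on chromosome 17, the chromosome of the congenic segment. Pafah2 lies on chromosome 4, Pafah1b3 on chromosome 7 and Pafah1b1 on chromosome 11. The start region of Pla2g7 is shown because it belongs to the gene that differed, and that of Pafah2 because it belongs to its closest relative in the set, which lies outside chromosome 17. Both are RefSeq reference sequences of GRCm38.p6, a B6 assembly, in windows of 300 bases around an annotated start. They lie at chr17:43568201-43568500 and chr4:134396070-134396369, both on the plus strand. Pla2g7 has 1 such window and Pafah2 has 4, of which only the one farthest upstream is shown and described. Capitals mark the GC box, GGGCGG or its reverse complement CCGCCC.
Pla2g7: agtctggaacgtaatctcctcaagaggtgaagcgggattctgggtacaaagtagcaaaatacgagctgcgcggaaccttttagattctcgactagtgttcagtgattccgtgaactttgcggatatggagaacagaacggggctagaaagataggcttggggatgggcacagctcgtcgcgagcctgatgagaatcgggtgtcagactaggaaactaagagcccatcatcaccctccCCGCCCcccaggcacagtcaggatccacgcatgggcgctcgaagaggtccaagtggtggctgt
Pafah2: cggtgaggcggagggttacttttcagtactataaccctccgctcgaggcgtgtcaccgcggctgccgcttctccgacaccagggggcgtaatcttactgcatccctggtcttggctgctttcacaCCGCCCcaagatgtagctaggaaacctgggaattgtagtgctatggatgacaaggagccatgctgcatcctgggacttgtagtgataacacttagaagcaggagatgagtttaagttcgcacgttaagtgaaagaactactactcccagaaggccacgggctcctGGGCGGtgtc
The Pla2g7 window held 1 GC box, at bases 238 to 243, and the Pafah2 window 2, at bases 126 to 131 and 291 to 296. At least 1 GC box on either strand was found in 35.7% of all 32851 windows of this length. The TATA box TATAAA, the CCAAT box CCAAT, the AP-1 site TGACTCA and the E-box CACGTG were not found on either strand of these windows, and 13.6%, 37.4%, 5.2% and 7.15% of all windows hold them. GC content was 54% in the Pla2g7 window and 54.33% in that of Pafah2, against a median of 52.67% over all windows. Pafah1b1, the remaining member with a RefSeq window, had 71.33% GC. No CAST sequence was used here.

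Pla2g7, the secreted hydrolase, was lower in congenic than in wild type muscle. Its log2 level was 11.83, 11.81 and 12.25 on the congenic muscle arrays, against 14.04, 14.45 and 14.15 on the wild type muscle arrays. All congenic arrays lay below all wild type arrays, and the gap between the highest congenic and the lowest wild type array, 1.80, was larger than the range within the congenic group (0.44) or within the wild type group (0.40). The means were 11.96 ± 0.25 and 14.21 ± 0.21 (SD, n = 3 each), a difference of -2.25 (SE 0.22), or 4.75-fold lower in congenic muscle. Of all 33012 probes, 10 had a difference this low or lower (0.0303%). A congenic group wholly below the wild type group was found for 5.27% of all probes in muscle.

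In hypothalamus the mean of Pla2g7 was lower in congenic mice once wild type array 1 was left out, though the difference did not pass the test. Pla2g7 was 13.20, 12.84 and 13.39 on the congenic hypothalamus arrays, against 7.66, 15.16 and 14.58 on wild type arrays 1, 2 and 3. Arrays 2 and 3 lay above all congenic arrays, by at least 1.19, and array 1 lay 5.18 below the lowest of them. Over all 6 arrays the means were 13.14 ± 0.28 in congenic and 12.47 ± 4.17 in wild type hypothalamus (SD, n = 3 each), and the congenic minus wild type value, 0.68, had a 95% interval of -3.36 to 4.71 (limma adjusted p = 0.951). Without wild type array 1 the wild type mean was 14.87 ± 0.42 (SD, n = 2), and the difference was -1.73 (SE 0.32, 95% interval -2.45 to -1.0), or 3.31-fold lower in congenic hypothalamus. Its limma adjusted p was 0.90 (unadjusted p = 0.000598). In that fit, 140 of all probes (0.424%) had a difference this low or lower, and the congenic group lay wholly below the wild type group for 13.3% of probes.

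The strain differences of Pla2g7 in the tissues were compared by an interaction contrast, muscle minus hypothalamus. It was -2.93 (SE 1.96; limma adjusted p = 0.913) over 12 arrays and -0.52 (SE 0.39, 95% interval -1.36 to 0.31; limma adjusted p = 0.803) without wild type hypothalamus array 1. The order of the group means, from high to low and without that array, was wild type hypothalamus, wild type muscle, congenic hypothalamus and congenic muscle. The nearest pair in this order was wild type hypothalamus (14.58 to 15.16) and wild type muscle (14.04 to 14.45), whose ranges were 0.13 apart.

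**Figure D1:**
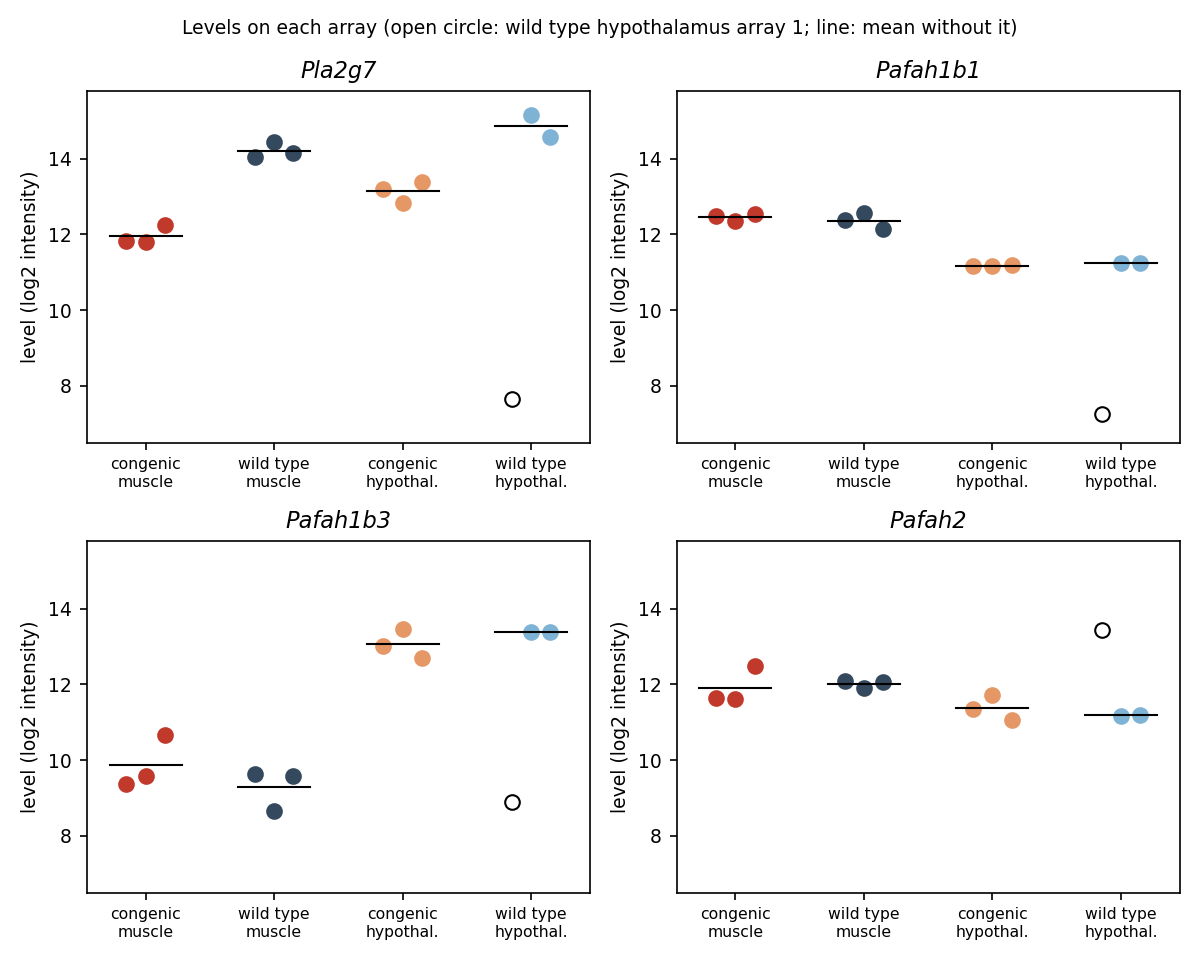
Log2 level of each measured gene on every array, in congenic muscle, wild type muscle, congenic hypothalamus and wild type hypothalamus. The filled points are arrays, the open circle is wild type hypothalamus array 1, and the line is the group mean without it. The congenic arrays of Pla2g7 lie below the wild type arrays in muscle, and below wild type arrays 2 and 3 in hypothalamus, while strain groups of Pafah1b3 and Pafah2 overlap in both tissues.

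Pafah2, the intracellular relative of the secreted enzyme, did not pass the strain test in either tissue. It was 11.64, 11.61 and 12.49 on the congenic muscle arrays, against 12.08, 11.90 and 12.06 on the wild type muscle arrays, so the wild type values lay inside the congenic range. The difference in muscle was -0.10 with a 95% interval of -0.75 to 0.54 (limma adjusted p = 0.953), and it was 0.04 and 0.05 without congenic array 1 and 2. In hypothalamus Pafah2 was 11.36, 11.72 and 11.07 on the congenic arrays, against 13.43, 11.17 and 11.19 on wild type arrays 1, 2 and 3. Array 1, which was the lowest for the other members, was the highest here. Congenic minus wild type was -0.55 (95% interval -2.32 to 1.23; limma adjusted p = 0.936) over all 6 arrays and 0.21 (-0.54 to 0.95; limma adjusted p = 0.951) without that array. The interval in muscle leaves out Pafah2 differences below -0.75 or above 0.54.

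Pafah1b1, which encodes LIS1, did not pass the strain test in either tissue. Its level was 12.48, 12.36 and 12.53 on the congenic muscle arrays, against 12.37, 12.58 and 12.14 on the wild type muscle arrays, and the groups overlapped. The difference in muscle was 0.09 (95% interval -0.40 to 0.59; limma adjusted p = 0.943) and changed sign to -0.02 without wild type array 3. In hypothalamus it was 11.17, 11.16 and 11.20 on the congenic arrays, against 7.26, 11.25 and 11.26 on wild type arrays 1, 2 and 3. The values of the 5 arrays other than wild type array 1 fell within 0.10 of each other, with the congenic ones below by a gap of 0.05. Over these arrays 13.3% of all probes had a congenic group wholly below the wild type group. Congenic minus wild type was 1.25 (95% interval -1.22 to 3.72; limma adjusted p = 0.936) over all 6 arrays and -0.08 (-0.75 to 0.60; limma adjusted p = 0.979) without that array.

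Pafah1b3, a catalytic subunit of the brain complex, did not pass the strain test in either tissue. It was 9.36, 9.58 and 10.66 on the congenic muscle arrays, against 9.65, 8.65 and 9.59 on the wild type muscle arrays. The groups overlapped, and the difference in muscle was 0.57 (95% interval -0.53 to 1.68; limma adjusted p = 0.849) with all arrays and 0.18 without congenic array 3. In hypothalamus the gene was 13.02, 13.48 and 12.70 on the congenic arrays, against 8.89, 13.39 and 13.38 on wild type arrays 1, 2 and 3. The congenic range enclosed wild type arrays 2 and 3. Congenic minus wild type was 1.18 (95% interval -1.55 to 3.90; limma adjusted p = 0.936) over all 6 arrays and -0.32 (-1.04 to 0.39; limma adjusted p = 0.921) without array 1.

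**Figure D2:**
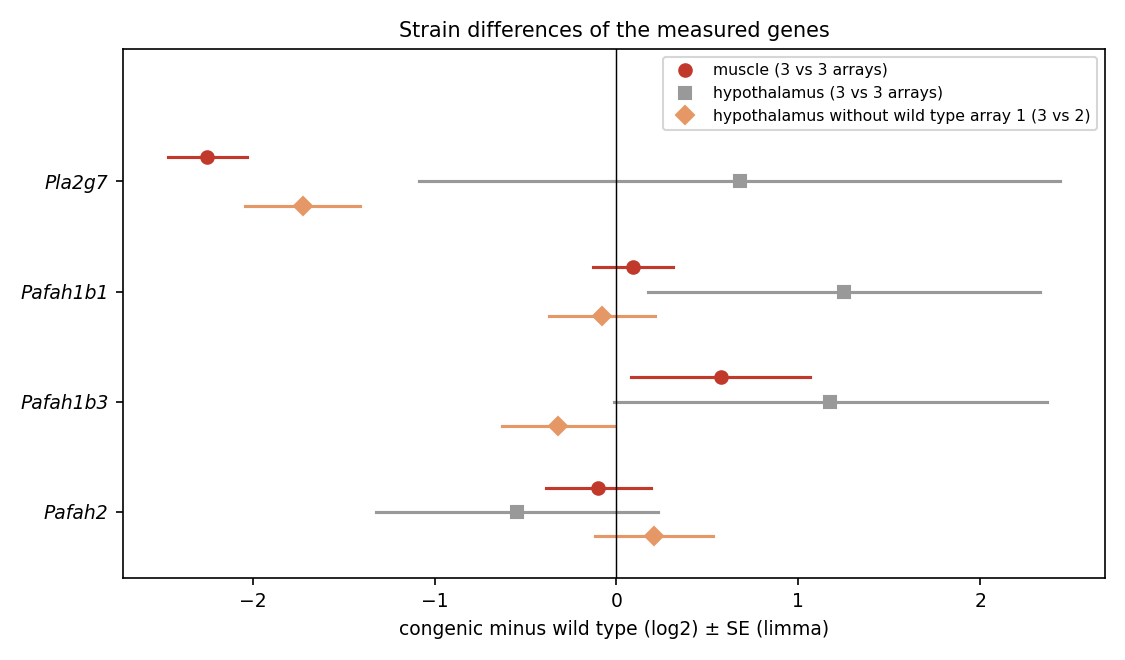
Strain difference of each measured gene (congenic minus wild type, log2) with its standard error from limma, in muscle, in hypothalamus and in hypothalamus without wild type array 1. Pla2g7 stands at -2.25 in muscle and -1.73 in hypothalamus without that array, and the other genes lie between -0.32 and 0.57 in these 2 comparisons.

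Of the 4 measured members, 1 (Pla2g7, the gene chosen for it) passed in muscle, where 0.0182% of all probes passed, and nothing is read from that count. Pla2g7 also passed without congenic array 3 (limma adjusted p = 0.00119) but not without any other muscle array (0.0738 to 0.177). In hypothalamus 0 of 4 passed limma, over all 6 arrays as well as without wild type array 1, where 0% of all probes passed. At an unadjusted p under 0.05 the counts were 0 of 4 over all 6 arrays, where 1.99% of probes met it, and 1 of 4 (Pla2g7) without array 1, where 5.33% did. The median difference of the members was -0.0044 in muscle, 0.93 in hypothalamus and -0.20 in hypothalamus without array 1, against 0.01, -0.07 and -0.01 over all probes. The interaction contrast passed for 0 of 4 members (limma), with and without that array, as for 0% of all probes. The number of members with an unadjusted p under 0.05 was 0 in both fits, against 3.63% of all probes over 12 arrays and 6.74% without that array.

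Across tissues, in the 6 muscle and the 5 hypothalamus arrays without wild type array 1, the members had different orders. Pafah1b3 was 8.65 to 10.66 in muscle and 12.70 to 13.48 in hypothalamus, a difference of -3.61 in muscle relative to hypothalamus. Pafah1b1 was 12.14 to 12.58 in muscle and 11.16 to 11.26 in hypothalamus, a difference of 1.20. The ranges of both genes did not overlap between the tissues, which was so for 17.7% of all probes with muscle higher and 11.8% with muscle lower. Pafah2, at 11.61 to 12.49 in muscle and 11.07 to 11.72 in hypothalamus, and Pla2g7, at 11.81 to 14.45 and 12.84 to 15.16, overlapped. With all 12 arrays normalized together the tissue differences were -3.87 for Pafah1b3, 1.08 for Pafah1b1, 0.56 for Pafah2 and -1.14 for Pla2g7, the last against -0.74 as deposited.

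Wild type hypothalamus array 1 departed from the other 5 hypothalamus arrays in every member. Relative to their mean it was -6.17 for Pla2g7, -3.94 for Pafah1b1, -4.30 for Pafah1b3 and 2.13 for Pafah2, while the median over all probes was 0.18. On this scale 1.42% of all probes were lower than Pla2g7, 5.75% than Pafah1b1, 4.78% than Pafah1b3 and 86.8% than Pafah2. The Pla2g7 value of array 1 was at percentile 13.3 of the array's probes, whereas wild type arrays 2 and 3 had it at percentiles 95.8 and 94.3.

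Marker levels of other cell types that the tissues could hold were read beside the Pla2g7 values. The mean of 8 macrophage and microglia markers was 12.72 to 13.15 on the congenic muscle arrays and 12.26 to 12.81 on the wild type muscle arrays, with 6 of 8 differences positive and a median of 0.45, and 0 of 8 passed limma, against 0.0182% of all probes. An unadjusted p under 0.05 was found for 4 of 8, against 5.01% of all probes. In hypothalamus their mean was 10.82 to 12.09 on the congenic arrays. On wild type arrays 1, 2 and 3 it was 11.28, 11.41 and 11.40. The mean of 5 adipocyte markers was 11.12 to 12.11 in congenic and 11.05 to 11.98 in wild type muscle, and the mean of 5 astrocyte markers was 10.87 to 11.79 on the congenic and 10.82 and 10.96 on those 2 wild type hypothalamus arrays. The mean of 6 endothelial markers was 9.30 to 9.49 on the congenic hypothalamus arrays, against 10.16, 10.02 and 9.83 on wild type arrays 1, 2 and 3. Without wild type array 1 the differences were uneven: -1.30 for Cdh5, -0.96 for Tek and -0.64 for Pecam1. They were -0.15 for Tie1, -0.10 for Emcn and 0.09 for Kdr. Of these 6 markers, 5 had a lower congenic mean without wild type array 1 (6 with it). In either fit 0 passed limma, as for 0% of all probes. An unadjusted p under 0.05 was found for 1 without that array, against 5.33% of all probes. With it the count was 0, against 1.99%. In muscle the endothelial mean was 10.66 to 11.33 in congenic and 11.10 to 11.52 in wild type mice, and these ranges overlapped. There 4 of the 6 endothelial markers had a lower congenic mean and 0 passed limma. Of the 6, 1 (Cdh5, -1.52) had an unadjusted p under 0.05, against 5.01% of all probes. The erythroid mean was 12.24 to 13.33 in congenic and 12.06 to 12.60 in wild type muscle, with 3 of 3 markers higher in congenic mice. The neutrophil mean was 9.98 to 10.55 in congenic and 10.20 to 10.41 in wild type muscle. In hypothalamus it was 8.80 to 8.92 on the congenic arrays, against 10.31, 8.41 and 8.35 on wild type arrays 1, 2 and 3. The mean of 6 anterior pituitary markers was 14.998 on congenic hypothalamus array 1, against 10.82 and 10.05 on congenic arrays 2 and 3 and 10.12 to 10.59 on the wild type hypothalamus arrays. Without both arrays numbered 1, the Pla2g7 difference in hypothalamus was -1.75. The part of cell composition in the Pla2g7 difference was not tested. Fewer cells of a type and less RNA per cell cannot be told apart in bulk tissue. Whether CAST sequence under the single Pla2g7 probe, or under probes of other chromosome 17 genes, changed the signal was also not tested.

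The neighbours of Pla2g7 were read to place its difference on the chromosome. In the gene order of the reference, the 6 nearest measured genes before it were Mmut, Opn5, Cd2ap, Tnfrsf21, Adgrf1 and Mep1a, and the 6 after it Slc25a27, Cyp39a1, Rcan2, Enpp5, Enpp4 and Clic5. In muscle 10 of these 12 had a lower mean in congenic mice (8 to 10 with each array left out), against 16163 of all 33012 probes. The median difference was -0.40, against 0.01 over all probes. Among the 10, Mmut (-0.0076), Rcan2 (-0.20) and Slc25a27 (-0.22) were nearest to 0. In 6 of the 12, Tnfrsf21, Adgrf1, Cyp39a1, Enpp5, Enpp4 and Clic5, all congenic arrays lay below all wild type arrays, against 5.27% of all probes. Adgrf1 averaged 7.64 in congenic and 8.22 in wild type muscle, below the median of all muscle values, 9.12. Of the 12, 0 passed limma, against 0.0182% of all probes, and 3 had an unadjusted p under 0.05, a threshold met by 5.01% of all probes.

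The nearest measured gene on either side of Pla2g7 did not pass in muscle. Both had group means below the median of all muscle values, 9.12. Detection calls were not used, so such low values cannot be told from background. Mep1a, a meprin protease subunit, averaged 8.06 in congenic and 7.59 in wild type muscle and so differed by 0.47 (SE 0.41; limma adjusted p = 0.851). Slc25a27, a mitochondrial carrier, averaged 8.61 in congenic and 8.83 in wild type muscle and so differed by -0.22 (SE 0.55; limma adjusted p = 0.949). The lowest differences among the neighbours were -1.68 for Enpp5, an ectonucleotide pyrophosphatase family member, and -1.24 for Cyp39a1, an oxysterol hydroxylase (limma adjusted p = 0.835 for both). In hypothalamus without wild type array 1, 5 of the 12 had a lower mean in congenic mice, against 16739 of all 33012 probes. The median difference was 0.30. Over all 6 arrays the count was 5 of 12, against 17729 of all probes, and the median difference 0.12. Without wild type array 1, 1 of the 12, Enpp5, had all congenic arrays below the wild type arrays, against 13.3% of all probes. Enpp5 averaged 10.65 in congenic and 12.93 in wild type hypothalamus (-2.28, limma adjusted p = 0.383). Mmut, methylmalonyl-CoA mutase, lay wholly above, as did 9.32% of all probes. Its means were 14.20 in congenic and 13.21 in wild type hypothalamus (limma adjusted p = 0.90). Over all 6 arrays Enpp5 and Mmut gave -1.17 and 0.47.

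**Figure D3:**
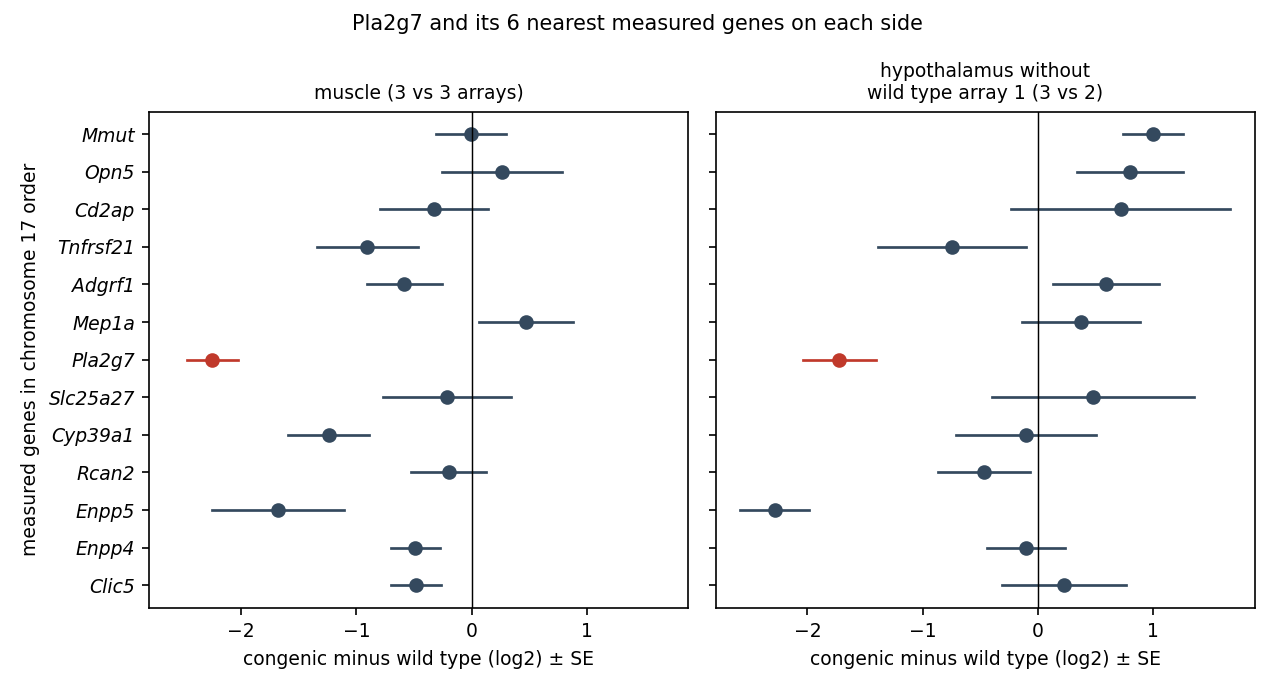
Strain differences (congenic minus wild type, log2, with the standard error from limma) of Pla2g7 and of the 6 nearest measured genes on each side, in chromosome order from top to bottom, in muscle and in hypothalamus without wild type array 1. Pla2g7 and Enpp5 lie furthest to the left in both tissues, at -2.25 and -1.68 in muscle and at -1.73 and -2.28 in hypothalamus.

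The genes whose pattern was most like that of Pla2g7 were sought over 11 arrays, without wild type hypothalamus array 1, after centring each tissue on its mean. Among 7203 genes with a mean above the median probe in both tissues, the highest Pearson correlations were 0.96 for Taf11, which encodes a TFIID component, 0.92 for Syvn1, a ubiquitin ligase of the endoplasmic reticulum, 0.92 for Rhot2, a mitochondrial GTPase, 0.90 for Spg7, a mitochondrial protease subunit, and 0.88 for Tspan14, a tetraspanin. Of the 7203 genes, 4 had a correlation above 0.9. Taf11 and Rhot2 lie on chromosome 17, Syvn1 on 19, Spg7 on 8 and Tspan14 on 14. In muscle Taf11 differed by -2.70, Syvn1 by -1.70, Rhot2 by -1.06, Spg7 by -0.31 and Tspan14 by -0.30. Only Taf11 passed there (limma adjusted p = 0.0124), where 0.0182% of all probes passed. The limma adjusted p was 0.835 for Syvn1, Rhot2 and Spg7 and 0.846 for Tspan14. In hypothalamus without wild type array 1 the differences were -2.90, -1.45, -0.87, -0.37 and -0.07 in the same order (limma adjusted p of 0.310 to 0.981). The correlations of the other members with Pla2g7 over the 11 arrays were -0.03 for Pafah1b1, -0.25 for Pafah1b3 and -0.02 for Pafah2. By tissue, they were -0.22, -0.45 and 0.27 over the 6 muscle arrays and 0.96, 0.35 and -0.61 over the 5 hypothalamus arrays, where the values of Pafah1b1 spanned 0.10 in all. These are descriptions, and the arrays of a strain share its difference.

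Genes that make platelet-activating factor or other ether lipids did not pass the strain test in either tissue. Of 14 listed, 12 were measured, and in muscle 0 passed limma, against 0.0182% of all probes (1 at an unadjusted p under 0.05, against 5.01% of probes), with a higher mean for 8 and a lower mean for 4 in congenic mice and a median of 0.23, against 0.01 over all probes. The smallest p-values in muscle belonged to Lpcat2, the acetyltransferase that makes the factor from its lyso form, at 9.05 ± 0.60 in congenic and 7.94 ± 0.26 in wild type muscle (1.11), to the acyltransferase Lpcat4 (0.98) and to the fatty acyl-CoA reductase Far1 (0.80), each with a limma adjusted p of 0.835. In hypothalamus 0 of 12 passed over all 6 arrays, and the smallest p-values were those of the phospholipase Pla2g4a (-0.75) and the phosphotransferases Cept1 (-0.75) and Chpt1 (0.63), which gave -0.42, -0.03 and 0.17 without wild type array 1.

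Among other phospholipase A2 genes, 16 of 20 were measured and 0 passed limma in muscle, where 0.0182% of all probes passed. In congenic muscle the mean was higher for 8 of the 16 and lower for 8 (median 0.02). Those with the smallest p-values in muscle were Pnpla8 (-0.82), Plaat3 (0.23) and Pla2g1b (0.50), with limma adjusted p-values of 0.835, 0.835 and 0.839. In hypothalamus they were Pla2g1b (-1.34), Pla2g4e (-0.86) and Plaat3 (1.86) over all 6 arrays, and without wild type array 1 the values were -0.20, -0.18 and -0.05.

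Partners of LIS1, which include dynein subunits and proteins of the reelin pathway, were measured for 15 of 18 genes, and 0 passed limma in muscle, against 0.0182% of all probes (8 higher and 7 lower, median 0.01). The smallest p-values in muscle were those of the microtubule-binding protein Clip1 (-0.55), the dynein adaptor Bicd2 (-0.38) and the reelin receptor Vldlr (-0.34), each with a limma adjusted p of 0.835. In hypothalamus they were those of the dynein chain Dync1li1 (1.08), Ywhae (-0.92) and Clip1 (-0.66) over all 6 arrays, and 0.76, -0.76 and -1.06 without wild type array 1.

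Receptor signalling and lipid mediator genes were measured for 10 of 17, and 0 passed limma in muscle, against 0.0182% of all probes (5 higher and 5 lower, median -0.02). The smallest p-values in muscle were those of Alox5ap, the activating protein of leukotriene synthesis (0.47; limma adjusted p = 0.835), and of the G protein subunits Gnai3 (-0.50; 0.849) and Gnai2 (0.26; 0.864). In hypothalamus they were those of the phospholipases Plcb1 (2.06) and Plcb2 (0.50) and of the arrestin Arrb2 (-0.80) over all 6 arrays, and 1.38, 0.53 and -0.58 without wild type array 1. Over the 4 lists, 53 of 69 genes were measured and 0 passed limma in hypothalamus over all 6 arrays (smallest adjusted p of 0.936) or without wild type array 1 (0.90), as for 0% of all probes. At an unadjusted p under 0.05 there were 0 over all 6 arrays and 3 (5.66%) without wild type array 1, against 5.33% of all probes. These 3, Lpcat4 (-1.31), Dync1li1 (0.76) and the extracellular protein Reln (1.60), are named after their values were seen. None of the 53 lay on chromosome 17.

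**Figure D4:**
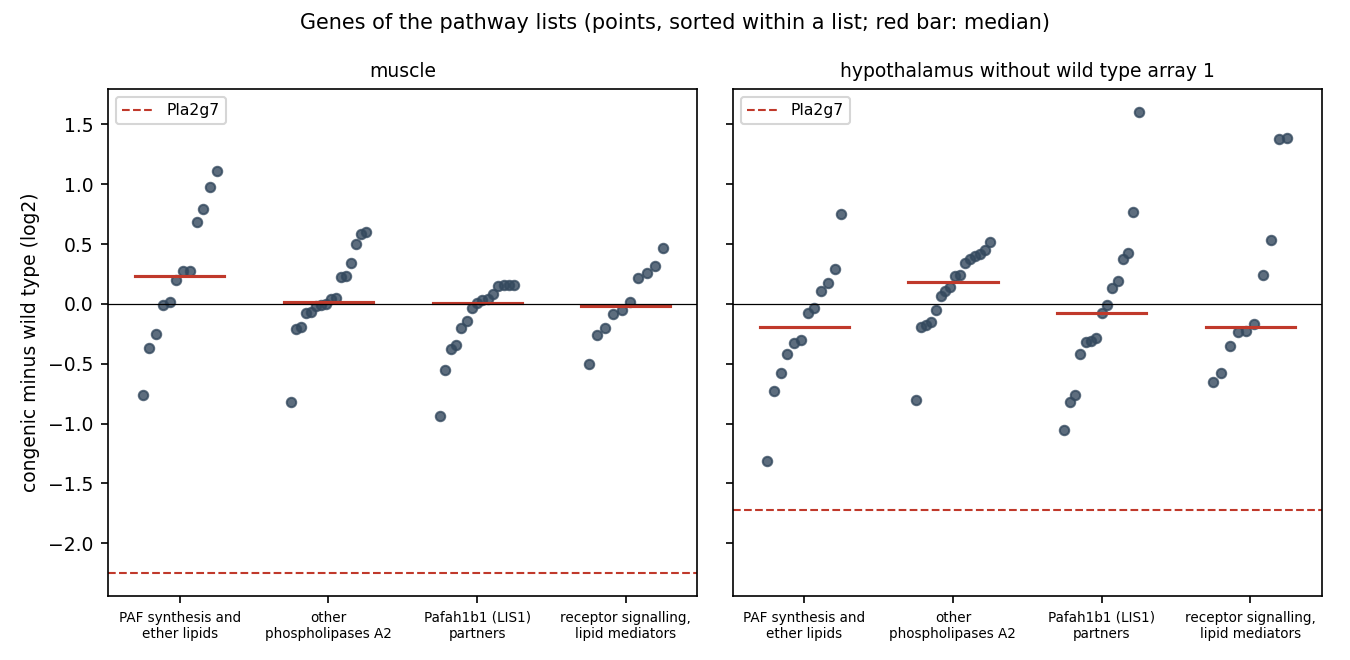
Strain differences (congenic minus wild type, log2) of the measured genes of 4 pathway lists in muscle and in hypothalamus without wild type array 1. Points are genes sorted within a list, bars are list medians and the dashed line is Pla2g7. The Pla2g7 line lies below all 53 genes in both panels. Pla2g7 was chosen by its muscle difference, so nothing is read from its place in the muscle panel.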

How the data were processed

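The deposited values of 12 arrays were taken as log2 intensities, since no label names the base and they run from 5.35 to 21.1. No source used here gives the background correction, the normalization or the software. Detection calls were not used, so low values cannot be told from background. Per the labels' protocols, total RNA was made into DIG-labelled cRNA for an Applied Biosystems chemiluminescent system. The number of arrays limits the precision. Where nothing says that replicates came from separate mice in both tissues, p-values measure the spread between these arrays.

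Probes were named from the platform annotation (14411 with 1 gene symbol, 13840 genes) through a RefSeq gene table of GRCm38.p6, used for names and gene order, with start regions for 3 of the 4 measured members. The brightest probe stood for a gene in lists. Congenic was compared with wild type in each tissue with limma 3.58.1 under R 4.3.3, by lmFit and by eBayes with a mean-variance trend, over 33012 probes, with Benjamini-Hochberg adjustment at 0.05 and no floor or filter. The fits were tested on simulated data. Named were all members, 6 measured neighbours on each side, the 5 genes most like Pla2g7 and, per list and tissue, genes that passed or else the 3 smallest p-values. Members, lists and tests were chosen with earlier results of these data known. Alternatives were each array left out, a floor at the 20th percentile, no trend, a joint fit, a replicate block, array weights and joint quantile normalization.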

Additional observations from a re-analysis of the deposited data

How the results depend on the processing

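The difference of Pla2g7 in muscle was -2.39 to -2.13 with each array left out and -2.34 to -2.07 under the other alternatives. The number of members that passed in muscle was 0 to 1 with each array left out: it was 1 without congenic array 3 and 0 without any other array, with limma adjusted p-values for Pla2g7 of 0.00119 to 0.177. It was also 0 with values floored at the 20th percentile, without the trend and in one fit of all 4 groups (limma adjusted p of 0.149, 0.346 and 1.00). The cause was not tested. In hypothalamus and for the interaction, 0 members passed under every alternative run, and 0 pathway genes passed in either tissue.

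In muscle the differences of Pafah2 and Pafah1b1, both near 0, ran from -0.39 to 0.051 and from -0.021 to 0.20 with each array left out. In hypothalamus those of Pla2g7, Pafah1b1, Pafah1b3 and Pafah2 ran from -1.73 to 2.03, -0.080 to 1.92, -0.32 to 1.93 and -0.93 to 0.21, and among these each turned its sign only without wild type array 1. They were -1.71, -0.0070, -0.20 and 0.20 with array weights, and -1.75, -0.077, -0.30 and 0.22 with congenic array 1 left out as well, an alternative chosen after seeing the data. The interaction of Pafah1b1, Pafah1b3 and Pafah2 ran from -1.82 to 0.17, -1.36 to 0.90 and -0.31 to 0.83 with each array left out, and was 0.083, 0.60 and -0.45 with array weights.

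In muscle, same-numbered arrays of the strains correlated by 0.01 to 0.07 in their deviations from group means, and differently numbered arrays by -0.08 to 0.02. In hypothalamus the ranges were -0.13 to 0.14 and -0.16 to 0.14. These values do not settle whether the replicate numbers pair the strains. With the replicate block, Pla2g7 in muscle gave -2.25 (limma adjusted p = 0.0400), and the number of members that passed was 1 in muscle and 0 in hypothalamus.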
